A study of Mus musculus with 6 samples.

Results

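The respiratory chain and the ATP synthase of mitochondria are built from many subunits, and 79 nuclear genes for these subunits were followed here among 18193 genes measured in sorted retinal cells. The genes were taken by symbol from the array annotation: names beginning Nduf with a subunit letter and number, Ndufab1, Sdha to Sdhd, all Uqcr names, Cyc1, numbered Cox4 to Cox8 names and all Atp5 names. By name, 35 belong to complex I, 4 to complex II, 9 to complex III, 14 to complex IV and 17 to complex V. Ndufa4 was counted with complex I by its name, although its protein is now placed in complex IV. Ndufa11 and Ndufs6 matched only probe sets shared with gene copies, and with Cox7b they were not analysed here. The subunits encoded in mitochondrial DNA have other names and were not analysed here either.

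Complexes I and II take electrons from NADH and succinate and pass them to ubiquinone. Complex III carries them on to cytochrome c, complex IV gives them to oxygen, and the proton gradient built on the way drives complex V, the ATP synthase. Retinal neurons spend much ATP on ion pumping, and ganglion cells, whose axons form the optic nerve, are known to be sensitive to defects of complex I.

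The cells came from retinas of C57BL/6 mice at postnatal day 6, dissociated with papain and sorted by flow cytometry. The Hb9 group held cells positive for GFP and Thy1 from a line in which GFP follows Hb9, the Drd4 group held cells positive for GFP and Thy1 from a line in which GFP follows Drd4, and the Thy1 group held cells sorted for Thy1. Each group had 2 arrays, whose cells came from different litters per the series text. Both lines are known to mark types of ON-OFF direction-selective retinal ganglion cells, and the label of a transgenic line can include other cells. Thy1 is a surface protein of ganglion cells in general, so the Thy1 group may include the types that the lines mark. The labels do not state how many mice were pooled for an array.

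RNA was amplified in 2 rounds and hybridised to Affymetrix mouse arrays, and the values are log2 of the deposited intensities. Median intensities of the 6 arrays ranged from 45.5 to 47.7, and replicate arrays correlated at 0.988 to 0.992 over all genes, against 0.963 to 0.981 between groups. Genes are not independent replicates. Of 14 ganglion cell markers, 13 lay above background on all 6 arrays, where background is the highest of 27 unspiked bacterial control probe sets of that array. Of the 79 subunit genes, 75 were above background on all 6 arrays. Ndufb4, Cox7b2 and Cox8b were above it on none, and Cox7a1 was above it on 5. The probe set of Ndufb4 that is its own is dim, and its brighter ones are shared with copies of the gene. Groups were compared with limma, errors of differences are standard errors, and a call means a Benjamini-Hochberg adjusted p under 0.05 over all 18193 genes, with n = 2 arrays in each group throughout.

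In Hb9 cells, 20 of the 79 subunit genes were higher than in Thy1 cells and 0 were lower by limma, and at an unadjusted p under 0.05 these counts were 37 and 0. Over all genes, 3.52% were called higher and 3.19% lower in this comparison, and at the unadjusted threshold 15.3% and 7.81%. The median difference over the 79 genes was 0.26 on the log2 scale. It was 0.04 over all genes and 0.18 over 5915 other genes of like brightness. The difference was positive for 72 of the 79, for 10365 of all 18193 genes and for 4202 of the 5915. The other genes of like brightness have a mean log2 intensity between the 10th and the 90th percentile of the subunit genes, and 5.85% of them were called higher. The 20 genes are 13 of complex I, 1 of complex III, 3 of complex IV and 3 of complex V. For 58 subunit genes both Hb9 arrays lay above both Thy1 arrays, an order shown by 33.2% of all genes, and for 3 both lay below, as for 21.0% of all genes.

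The count of genes called higher against Thy1 was lower when any 1 Hb9 or Thy1 array was left out. Such a fit leaves 1 array in a group, and the cause of the drop was not tested. Without Hb9 replicate 1 the count fell to 0, without Hb9 replicate 2 to 1, without Thy1 replicate 1 to 1 and without Thy1 replicate 2 to 13, while calls over all genes fell to 0.53%, 0.78% and 0.67% higher without the first 3 of these and stood at 4.21% without the last. The median difference over the subunit genes stayed between 0.25 and 0.35 in these 4 fits. Across the arrays the median log2 level of the 79 genes was 9.78 and 9.71 in Hb9, 9.36 and 9.58 in Drd4, and 9.33 and 9.55 in Thy1, with a pooled SD of 0.13 between replicates. Hb9 replicate 1 was the highest of the 6 arrays for 53 genes and Hb9 replicate 2 for 16. Over all 18193 genes these counts were 4665 and 2937, and over the 5915 other genes of like brightness 1975 and 1203. In RNA from sorted cells, a change in the share of a cell type and a change in RNA per cell cannot be told apart.

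**Figure D1:**
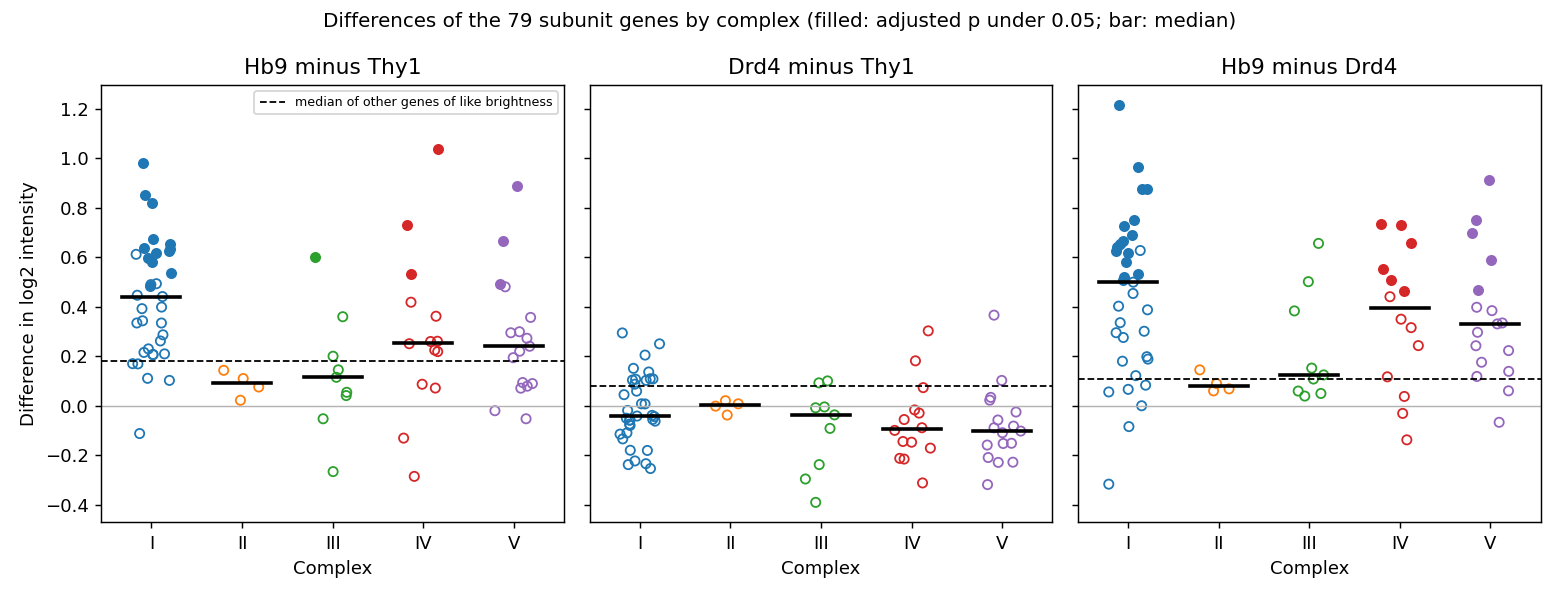
Difference in log2 intensity (vertical axis) of each of the 79 subunit genes, by complex (horizontal axis), for Hb9 minus Thy1, Drd4 minus Thy1 and Hb9 minus Drd4; filled points have an adjusted p under 0.05, short bars are medians, and the dashed line is the median of 5915 other genes of like brightness. Complex I has its median at 0.44 and 0.50 in the Hb9 panels, and no point is filled for Drd4 minus Thy1.

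Complex I, the entry point for electrons from NADH, held most of the genes that were higher in Hb9 than in Thy1 cells. Of its 35 genes, 13 were called higher and 0 lower, with a median difference of 0.44, and 34 of the differences were positive. Ndufb7, an accessory subunit of the membrane arm, read 10.61 and 10.51 in Hb9, 9.11 and 9.58 in Drd4, and 9.28 and 9.88 in Thy1. Both Hb9 arrays were above the other 4, while the arrays of the other 2 groups overlapped. The difference from Thy1 was 0.98 ± 0.21 (adjusted p = 0.0242), a 1.97-fold higher intensity. A dimmer second probe set of Ndufb7 differed by 0.84 ± 0.24, with an adjusted p of 0.0645 over all probe sets.

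Ndufab1, the mitochondrial acyl carrier protein that is also a complex I subunit, read 9.88 and 9.73 in Hb9, 8.65 and 9.03 in Drd4, and 8.81 and 9.09 in Thy1. The Hb9 arrays again stood above the rest, by 0.85 ± 0.18 (adjusted p = 0.0202) against Thy1. Ndufs7, a core subunit that holds the last iron-sulphur cluster before ubiquinone, read 9.03 and 8.86 in Hb9, 8.02 and 8.12 in Drd4, and 7.91 and 8.34 in Thy1 and differed from Thy1 by 0.82 ± 0.18 (adjusted p = 0.0251). It was the 1 core subunit called of the 6 that were measured, namely Ndufs1, Ndufs3, Ndufs7, Ndufs8, Ndufv1 and Ndufv2, whose median difference was 0.47. Of the other 29 complex I genes, 12 were called, with a median of 0.40.

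Ndufc1, a small membrane subunit, averaged 11.05 ± 0.063 in Hb9, 10.42 ± 0.0018 in Drd4 and 10.41 ± 0.047 in Thy1 (SD). The groups of Hb9 and Thy1 did not overlap, and the Hb9 minus Thy1 difference was 0.63 ± 0.12 (adjusted p = 0.0124). Ndufv3, an accessory subunit of the arm that oxidises NADH, differed by 0.62 ± 0.11 (adjusted p = 0.0125) with 11.13 and 11.15 in Hb9, 10.59 and 10.67 in Drd4, and 10.50 and 10.56 in Thy1. Ndufa1, a small subunit encoded on the X chromosome, read 12.22 and 12.13 in Hb9, 11.45 and 11.61 in Drd4, and 11.50 and 11.69 in Thy1, a difference of 0.58 ± 0.11 (adjusted p = 0.0137). For all 3 genes the Hb9 arrays lay above the other 4. Ndufa6 differed by 0.67 ± 0.15 (adjusted p = 0.028) and Ndufa13, which is also known as a cell death regulator, by 0.62 ± 0.14 (adjusted p = 0.0287). The remaining complex I genes called were Ndufs5, Ndufb10, Ndufa5, Ndufb9 and Ndufb11, with differences of 0.65, 0.64, 0.60, 0.53 and 0.49. The lowest difference in complex I was -0.11 for Ndufb4, whose probe set lay below background in all groups.

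Succinate dehydrogenase, complex II, which also works in the citric acid cycle, gave 0 calls by limma among its 4 genes in every comparison, and 0 at an unadjusted p under 0.05. Sdhb, its iron-sulphur subunit, read 10.57 and 10.34 in Hb9, 10.21 and 10.41 in Drd4, and 10.36 and 10.26 in Thy1, and the groups overlapped. Its difference from Thy1, 0.14 ± 0.14, was the highest of the 4. The flavin subunit Sdha differed by 0.08 ± 0.14 and the membrane anchors Sdhc and Sdhd by 0.11 ± 0.16 and 0.02 ± 0.16, all as Hb9 minus Thy1. The 4 differences were about as large as their standard errors or smaller.

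Complex III had 1 gene called of 9. Cyc1, the haem-bearing cytochrome c1, read 10.48 and 10.11 in Hb9, 9.75 and 9.84 in Drd4, and 9.64 and 9.75 in Thy1. Both Hb9 arrays were above all others, and the difference from Thy1 was 0.60 ± 0.15 (adjusted p = 0.0447). The median over the 9 genes was 0.11. Uqcrc1 and Uqcrc2, the core proteins, differed by -0.05 ± 0.19 and 0.04 ± 0.16. Uqcrh, the hinge protein that contacts cytochrome c1, had the lowest difference of the complex at -0.27 ± 0.14 (adjusted p = 0.299), with both Hb9 arrays below both Thy1 arrays. A second probe set of Uqcrh, of nearly the same brightness, read 8.50 and 8.67 in Hb9, 8.62 and 8.69 in Drd4, and 9.25 and 9.08 in Thy1. It was lower in Hb9 than in Thy1, with a difference of -0.58 ± 0.15 (adjusted p = 0.0439 over all probe sets).

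Complex IV had 3 genes called of 14, with a median difference of 0.25. Cox7c, a small subunit found in all tissues, read 7.18 and 6.88 in Hb9, 6.49 and 6.11 in Drd4, and 5.99 and 6.01 in Thy1. Each Hb9 array was above each of the other 4, and the difference of 1.04 ± 0.18 (adjusted p = 0.00906), 2.05-fold, was the highest of the 79 genes. Its probe set may share probes with related sequences, and a second probe set of the gene lay below background on all 6 arrays. Cox6b1, a subunit on the side of cytochrome c, read 12.27 and 12.03 in Hb9, 11.49 and 11.71 in Drd4, and 11.58 and 11.65 in Thy1 and differed by 0.53 ± 0.12 (adjusted p = 0.0273). A second bright probe set of Cox6b1 differed by -0.03 ± 0.11, so its 2 probe sets disagree.

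The subunits of complex IV with isoforms were then set side by side. Cox7a1, the isoform typical of heart and skeletal muscle, read 5.95 and 5.81 in Hb9, 5.19 and 5.26 in Drd4, and 5.02 and 5.28 in Thy1, close to background in Drd4 and Thy1, and was higher in Hb9 than in Thy1 by 0.73 ± 0.14 (adjusted p = 0.0156). Cox7a2, the isoform of most tissues, differed by 0.26 ± 0.09 (adjusted p = 0.119). Cox6a1 and its muscle isoform Cox6a2 differed by 0.26 ± 0.12 and 0.22 ± 0.16, and the testis isoform Cox6b2 by 0.07 ± 0.20. Cox8a and the testis isoform Cox8c differed by 0.09 ± 0.14 and -0.13 ± 0.15. Cox8b, a muscle isoform, and Cox7b2, a testis isoform, were not above background on any array. No isoform other than Cox7a1 and Cox6b1 passed.

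Complex V had 3 genes called of 17, with a median difference of 0.24. Atp5l, the membrane subunit g that lies where synthases pair, read 9.46 and 9.44 in Hb9, 8.36 and 8.71 in Drd4, and 8.54 and 8.58 in Thy1. The Hb9 arrays lay close together and above all others, by 0.89 ± 0.16 (adjusted p = 0.0117) against Thy1, a 1.85-fold higher intensity. Atp5e, the epsilon subunit of the rotating stalk, read 8.90 and 8.96 in Hb9, 8.08 and 8.28 in Drd4, and 8.23 and 8.30 in Thy1 and differed by 0.67 ± 0.15 (adjusted p = 0.0288). Atp5h, subunit d of the fixed outer stalk, differed by 0.49 ± 0.12 (adjusted p = 0.0358) with 11.76 and 11.72 in Hb9, 10.95 and 11.13 in Drd4, and 11.15 and 11.35 in Thy1.

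The genes of the catalytic subunits were not called. Atp5b, the beta subunit, read 10.23 and 9.71 in Hb9, 9.77 and 10.05 in Drd4, and 9.74 and 10.01 in Thy1, with the Hb9 arrays above and below the mean of the other arrays, and differed from Thy1 by 0.09 ± 0.19. Atp5a1, the alpha subunit, differed by 0.22 ± 0.11, and of the 5 genes of the F1 head only Atp5e was called. Atp5g1, Atp5g2 and Atp5g3, which encode the same mature subunit c of the membrane ring, differed by 0.30 ± 0.15, -0.05 ± 0.16 and 0.09 ± 0.10. Whether the differences of 1 complex differ from those of another was not tested.

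**Figure D2:**
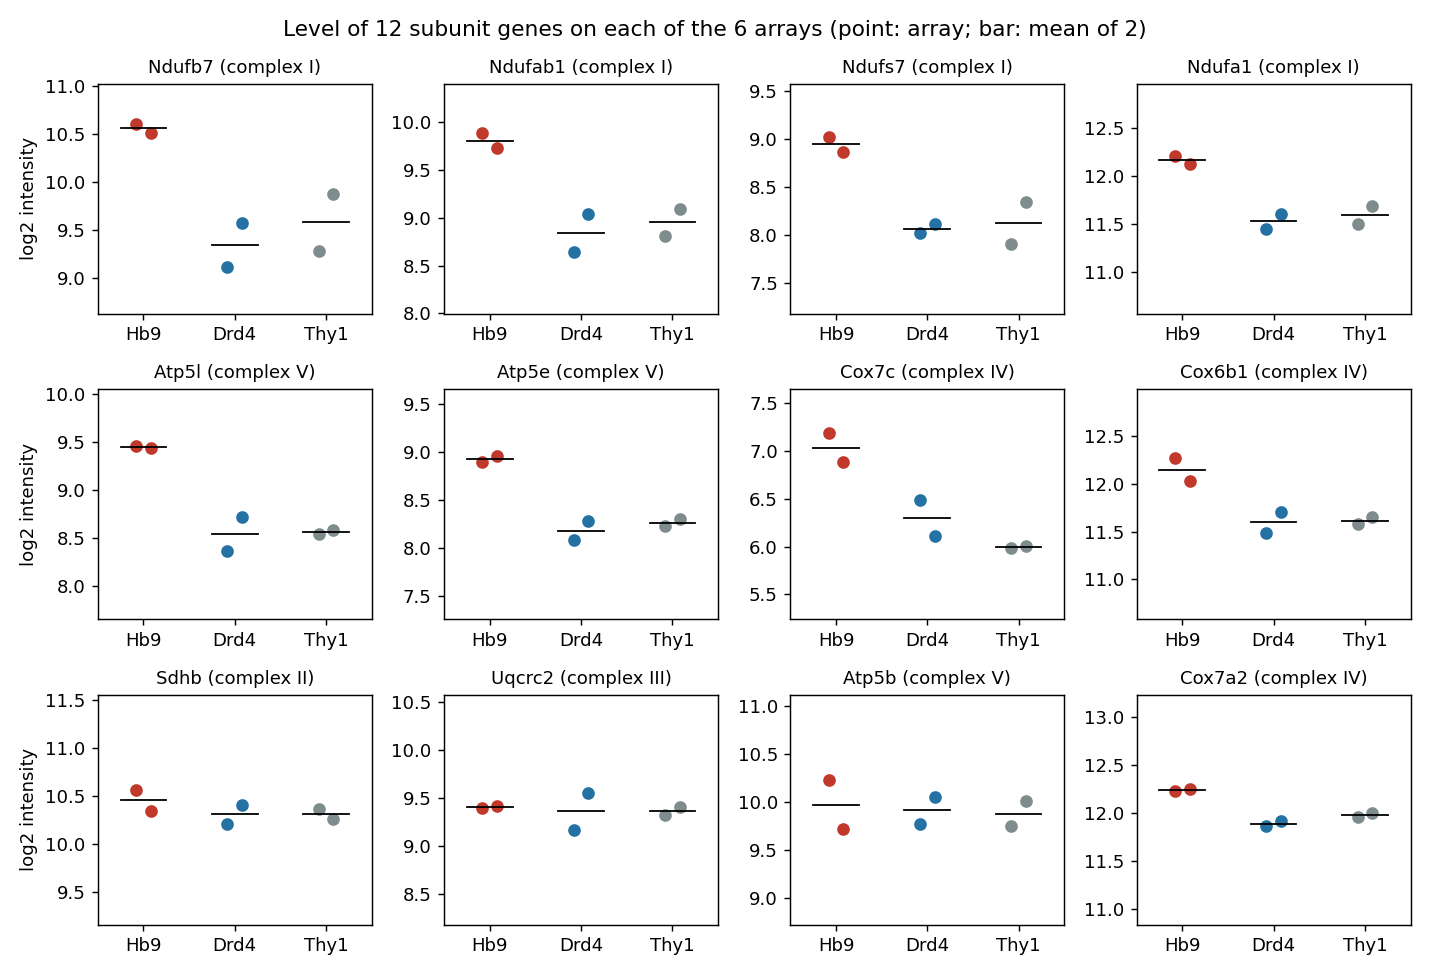
Log2 intensity (vertical axis, each panel spanning the same range of log2 units around the gene's mean) of 12 subunit genes on the 2 Hb9, 2 Drd4 and 2 Thy1 arrays; each point is an array and each bar the mean of 2. The Hb9 points of Ndufb7, Ndufab1, Atp5l and Cox7c stand above all others, while those of Sdhb and Atp5b overlap with the other groups.

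Between the lines, 27 of the 79 subunit genes were higher in Hb9 than in Drd4 cells and 0 were lower by limma, and at an unadjusted p under 0.05 these counts were 46 and 1. Over all genes, 4.06% were called higher and 2.06% lower, and at the unadjusted threshold 13.5% and 6.27%. The median difference was 0.34, against 0.04 over all genes and 0.11 over the other genes of like brightness. Positive differences were found for 73 of the 79, for 10267 of all 18193 genes and for 3771 of the 5915 of like brightness. The Hb9 minus Drd4 difference is also the difference between the Hb9 and the Drd4 line in their change from Thy1. Of the 27 genes, 16 belong to complex I, with a median of 0.50, 6 to complex IV, with 0.39, and 5 to complex V, with 0.33. Complexes II and III had 0 calls, with medians of 0.08 and 0.12. For 61 genes both Hb9 arrays lay above both Drd4 arrays, against 30.6% of all genes, and for 3 both lay below, against 19.1%.

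Ndufb7 had the highest difference of the 79, 1.22 ± 0.21 (adjusted p = 0.00836), or 2.32-fold, and its second probe set differed by 1.16 ± 0.24. Ndufa13 read 10.43 and 10.30 in Hb9, against 9.36 and 9.61 in Drd4, a difference of 0.88 ± 0.14 (adjusted p = 0.00536). Both Hb9 arrays were above both Drd4 arrays by more than the replicates differed. Ndufab1 differed by 0.96 ± 0.18 (adjusted p = 0.0105) and Ndufs7 by 0.88 ± 0.18 (adjusted p = 0.0181). Ndufa1, Ndufb11, Ndufc1 and Ndufb10 were higher by 0.64, 0.67, 0.63 and 0.75, with adjusted p of 0.0075, 0.00914, 0.0111 and 0.0149. Among the core subunits, Ndufs8 passed besides Ndufs7. The lowest difference was that of Ndufb4, -0.32, at intensities below background.

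In complex IV, Cox6c, a small membrane subunit, read 10.76 and 10.64 in Hb9, against 9.98 and 9.96 in Drd4. The replicates were close, and the difference was 0.73 ± 0.12 (adjusted p = 0.00639). Cox5b, which binds zinc, differed by 0.51 ± 0.10 (adjusted p = 0.0171) with 12.67 and 12.64 in Hb9, against 12.02 and 12.28 in Drd4. Cox7c differed by 0.73 ± 0.18 (adjusted p = 0.0367), Cox7a1 by 0.66, Cox6b1 by 0.55 and Cox5a by 0.46, all past the threshold. The second probe set of Cox6b1 differed by 0.01 ± 0.11.

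In complex V, Atp5h read 11.76 and 11.72 in Hb9, against 10.95 and 11.13 in Drd4, and differed by 0.70 ± 0.12 (adjusted p = 0.00677). Atp5l was higher by 0.91 ± 0.16 (adjusted p = 0.00845) and Atp5e by 0.75 ± 0.15 (adjusted p = 0.0171). Atp5d, the delta subunit of the rotating stalk, and Atp5j2, subunit f, were higher by 0.59 and 0.47. Atp5g1 had the lowest difference of the complex, -0.07 ± 0.15. In complex III, the highest difference was 0.66 ± 0.18 (adjusted p = 0.0693) for Uqcrq, a small subunit that did not pass, and the lowest was 0.04 for Uqcrc1.

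The count against Drd4 also fell when certain arrays were left out, and the cause was not tested. Without Hb9 replicate 1 it fell to 0, without Hb9 replicate 2 to 8 and without Drd4 replicate 1 to 7, while 1.45%, 1.76% and 2.47% of all genes were then called higher. The median difference over the subunit genes was 0.30, 0.40 and 0.30 in these fits.

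The comparisons of Hb9 with Thy1 and of Hb9 with Drd4 share the Hb9 arrays. Of the 29 genes called in either, 18 were called in both, which is 18 of the 20 calls against Thy1 and 66.7% of the 27 against Drd4. These are Ndufa1, Ndufa5, Ndufa6, Ndufa13, Ndufab1, Ndufb7, Ndufb9, Ndufb10, Ndufb11, Ndufc1, Ndufs7, Ndufv3, Cox6b1, Cox7a1, Cox7c, Atp5e, Atp5h and Atp5l. For 52 of the 79 genes both Hb9 arrays lay above all 4 other arrays, against 20.3% of all genes, and for 1 both lay below, against 9.04%.

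In Drd4 cells, 0 of the 79 subunit genes were called against Thy1 in either direction, while 1.51% of all genes were called higher and 3.96% lower. At an unadjusted limma p under 0.05, 2 subunit genes were higher and 3 lower, against 6.28% and 8.27% of all genes. The median difference was -0.06, against 0.02 over all genes and 0.08 over the other genes of like brightness, all as deposited. After centring each array on its median it was 0.02, against 0.09 over all genes. As deposited, 53 of the 79 differences were negative, against 8330 of all 18193 genes and 2108 of the 5915 others of like brightness. By complex the medians were -0.04, 0.00, -0.04, -0.09 and -0.10 for complexes I to V as deposited, and that of complex I was 0.03 after the same centring. For 22 genes both Drd4 arrays lay below both Thy1 arrays, against 19.3% of all genes, and for 9 both lay above, against 21.8%.

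No subunit gene differed past the threshold in Drd4 cells. The lowest difference was -0.39 ± 0.14 (adjusted p = 0.205) for Uqcrh, which read 8.69 and 8.66 in Drd4, against 9.01 and 9.12 in Thy1. Its replicates were close together and the groups did not overlap. The highest was 0.37 ± 0.15 (adjusted p = 0.266) for Atp5g1, with 8.33 and 8.41 in Drd4, against 7.98 and 8.02 in Thy1. In complex I the differences ran from -0.25 for Ndufa13 to 0.29 for Ndufa4, and in complex II from -0.04 for Sdhd to 0.02 for Sdhc. In complex IV they ran from -0.31 for Cox6c to 0.30 for Cox7c. Atp5c1, the gamma subunit that turns inside the F1 head, had the lowest of complex V, -0.32, and Cyc1 the highest of complex III, 0.10. A call missed at 2 arrays a group does not show that the levels were alike.

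Against Thy1, the mean of both GFP lines was higher for 1 of 79 subunit genes, Cox7c, with 0.67 ± 0.15 (adjusted p = 0.0324), and lower for 0, with 17 and 1 at an unadjusted limma p under 0.05. Over all genes 1.55% were called higher and 3.54% lower, and at the unadjusted threshold 10.2% and 7.81%. The median over the subunit genes, 0.13, equalled that of the other genes of like brightness, 0.13. For 8 genes all 4 arrays of the lines lay above both Thy1 arrays, against 11.6% of all genes, and for 3 they lay below, against 9.57%. Cox7c lost this call without Hb9 replicate 1 or either Thy1 array, and also when its probe sets were averaged (0.42, adjusted p = 0.153), under cyclic loess (0.62, adjusted p = 0.0526) and under centring on other genes of like brightness (0.56, adjusted p = 0.0644).

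Brightness was compared since other genes of like brightness shifted, with a median of 0.18 in Hb9 minus Thy1, against 0.04 over all genes. In Drd4 minus Thy1 these medians were 0.08 and 0.02. In Hb9 minus Thy1, the medians were 0.11 for 15 subunit genes with a mean log2 intensity under 8, 0.26 for 34 genes from 8 to 10, 0.46 for 14 genes from 10 to 11 and 0.26 for 16 genes from 11 up. All other genes of the same bins had medians of 0.02, 0.19, 0.10 and 0.06. The subunit genes thus stood above other genes in each bin, by the least from 8 to 10. In Hb9 minus Drd4 the subunit medians were 0.18, 0.30, 0.55 and 0.37, against 0.03, 0.11, 0.02 and 0.02. In Drd4 minus Thy1 they were -0.05, -0.02, -0.05 and -0.07, against 0.01, 0.09, 0.09 and 0.03. Complex I genes had Hb9 minus Thy1 medians of 0.29, 0.34, 0.51 and 0.45 in the same bins, from 3, 17, 10 and 5 genes. In all, 3 of the 4 bins of subunit genes hold fewer than 20 genes.

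**Figure D3:**
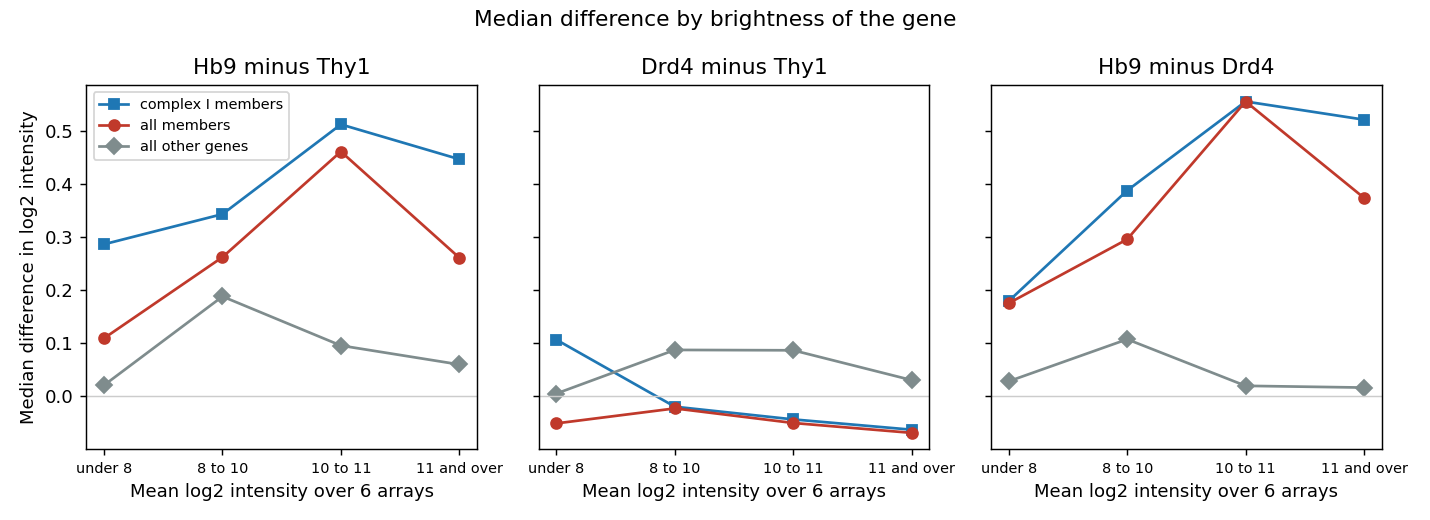
Median difference in log2 intensity (vertical axis) in 4 bins of mean log2 intensity over the 6 arrays (horizontal axis) for complex I members, all members and all other genes, in Hb9 minus Thy1, Drd4 minus Thy1 and Hb9 minus Drd4. In both Hb9 panels the subunit genes lie above the other genes in every bin, and in the Drd4 minus Thy1 panel they lie below them, except the 3 complex I genes of the dimmest bin, whose median is 0.11, against 0.01.

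Set against the median of the other genes of like brightness, 54 of the 79 genes differed by more in Hb9 minus Thy1, 61 in Hb9 minus Drd4 and 17 in Drd4 minus Thy1. In complex I these were 30, 29 and 11 of 35, and in complex II 0, 1 and 0 of 4. When each array was centred on these other genes, a setting added after the data were seen, 9 subunit genes were called in Hb9 against Thy1 and 15 in Hb9 against Drd4, and the medians were 0.10 and 0.22.

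Probe sets of the same gene did not always give the same answer. Of the 20 genes called against Thy1, 10 have several probe sets. On 9 of these genes, 11 other probe sets lay above background, of which 9 had a positive difference and 0 were called over all probe sets. Genes that were not called also had probe sets that passed in Hb9 against Thy1. Over all 79 genes, 68 probe sets other than the one used lay above background, of which 6, on Cox5a, Cox6c, Ndufa12, Ndufs4 and Ndufs8, were called higher and 1, on Uqcrh, lower. The choice of probe set therefore sets some of the calls. Of the 27 genes called against Drd4, 17 had 29 such probe sets, of which 28 were positive and 9 were called, and 4 more were called on genes that were not. The share of genes called differed between probe set types, and this was not tested. Of 27 genes read by a probe set for several transcripts of a gene (ending in _a_at), 11 were called against Thy1. Of 32 read by a plain probe set, 6 were called. Of 20 read by a probe set that can share probes with related sequences (ending in _s_at or _x_at), 3 were called. These 3 are Ndufa13, Cox7c and Atp5e, whose values are uncertain where pseudogenes or related genes share the probes. Against Drd4, 14 of the 27, 5 of the 32 and 8 of the 20 were called. Most of the genes read by an _a_at probe set belong to complex I, and no complex II gene is among them. The shares called by probe set type and by complex are therefore not separate, and the part of each was not tested.

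Promoters of the genes were searched for the motifs of factors known to drive subunit genes, because many members moved together in Hb9. RefSeq promoters of the GRCm38.p6 build, from 250 bases before to 50 after the start site, were at hand for 66 of the 79 genes. The promoters of 6 genes are printed 5′ to 3′ on the gene's strand, up to the base before the start site, with the motif in capitals. The first 4 belong to genes called against both Thy1 and Drd4 and the last 2 to complex II genes that were not called. Positions are chr9:44920743-44920992, minus strand, for Atp5l; chr8:83566658-83566757, plus strand, for Ndufb7; chr11:115419920-115420019, minus strand, for Atp5h. They are chr15:82354292-82354391, minus strand, for Ndufa6; chr4:140961171-140961270, plus strand, for Sdhb; and chr9:50603850-50603949, minus strand, for Sdhd.
Atp5l: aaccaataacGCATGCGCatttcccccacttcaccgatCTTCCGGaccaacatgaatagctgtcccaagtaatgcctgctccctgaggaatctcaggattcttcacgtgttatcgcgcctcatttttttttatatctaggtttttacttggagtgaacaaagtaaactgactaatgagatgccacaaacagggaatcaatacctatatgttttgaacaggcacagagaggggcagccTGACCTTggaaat
Ndufb7: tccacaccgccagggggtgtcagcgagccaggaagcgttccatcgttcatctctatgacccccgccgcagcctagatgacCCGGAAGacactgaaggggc
Atp5h: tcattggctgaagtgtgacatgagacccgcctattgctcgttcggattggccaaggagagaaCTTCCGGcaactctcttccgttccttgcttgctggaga
Ndufa6: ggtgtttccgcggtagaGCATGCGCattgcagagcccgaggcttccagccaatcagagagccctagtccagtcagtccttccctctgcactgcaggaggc
Sdhb: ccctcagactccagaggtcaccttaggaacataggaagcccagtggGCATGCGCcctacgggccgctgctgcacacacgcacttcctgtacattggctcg
Sdhd: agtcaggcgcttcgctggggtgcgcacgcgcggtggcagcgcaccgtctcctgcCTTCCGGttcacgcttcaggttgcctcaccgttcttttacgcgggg

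The promoter of Atp5l holds GCATGCGC, a motif of NRF1, then CTTCCGG, the other strand of CCGGAAG bound by ETS factors such as GABPA, and near the start site TGACCTT, the other strand of AAGGTCA bound by oestrogen-related receptors. Ndufb7 and Atp5h hold the ETS letters and Ndufa6 the NRF1 letters. In the printed stretches, the uncalled genes Sdhb and Sdhd hold the NRF1 and the ETS letters too. For Atp5l 250 bases are printed and for the others 100. Over the whole searched promoter, Sdhb also holds the ETS letters and Sdhd those of the oestrogen-related receptors. Both strands were searched, and the motifs share no stretch in these promoters.

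A gene was counted if any of its promoters held the letters. Of the 66 genes, 9 held GCATGCGC (13.6%, against 3.05% of 27025 genes with a RefSeq promoter). CCGGAAG was held by 17 (25.8%, against 9.93%), AAGATGGC, a motif of YY1, by 9 (13.6%, against 3.19%) and AAGGTCA by 8 (12.1%, against 5.38%). Any of the 4 was held by 33 of the 66, against 19.7% of all genes with a promoter. Among 26 genes called in either Hb9 comparison 12 held 1 or more (46.2%), and among 40 uncalled genes 21 did (52.5%). The difference between these shares was not tested. A match describes letters only, and no match says nothing of the factor.

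Regulators of mitochondrial genes were read beside the subunits, from a list of 18 genes. In Hb9 against Thy1, 2 were higher and 1 lower, with a median of 0.07. Polrmt, the mitochondrial RNA polymerase, was higher by 0.86 ± 0.18 (adjusted p = 0.0233) and Tfb1m, which methylates mitochondrial ribosomal RNA, by 0.77 ± 0.20 (adjusted p = 0.0463). Esrrg, an oestrogen-related receptor, read 8.92 and 9.05 in Hb9, 8.84 and 8.13 in Drd4, and 10.47 and 9.79 in Thy1. It was lower than in Thy1 in both lines, with differences of -1.14 ± 0.26 (adjusted p = 0.0291) in Hb9 and -1.65 ± 0.26 (adjusted p = 0.00392) in Drd4. Tfb1m was also higher in Hb9 than in Drd4, by 0.95.

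Among the factors of the searched motifs, Esrrg was lower in Hb9 than in Thy1, as given above, while Nrf1, Gabpa, Yy1, Esrra and Esrrb did not pass. The differences were -0.08 ± 0.15 for Nrf1, 0.12 ± 0.22 for Gabpa, 0.14 ± 0.15 for Yy1 and 0.35 ± 0.18 for Esrra. Ppargc1a, a coactivator of these factors, differed by -0.45 ± 0.24, and its relatives Ppargc1b and Pprc1 by -0.27 and 0.25. Tfam, which packs mitochondrial DNA, differed by 0.56 ± 0.18 (adjusted p = 0.0944). Gabpb1, Esrrb, Tfb2m, Polg, Twnk, Ppara and Ppard ran from -0.24 to 0.25, and Ppara and Ppard were close to background.

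Related genes outside the subunit names were 6. Cycs, cytochrome c, read 11.70 and 11.67 in Hb9, 11.43 and 11.27 in Drd4, and 11.27 and 11.30 in Thy1 and missed the threshold at 0.40 ± 0.11 (adjusted p = 0.0503). Cox4i1 differed by 0.20 ± 0.15, Cox4i2 by -0.03 ± 0.17, Cox7a2l, a factor of supercomplexes, by 0.44 ± 0.15 and Ndufa4l2 by -0.48 ± 0.17. Cyct, the testis cytochrome c, had an adjusted p of 0.0264 but was above background on no array.

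Assembly factors, which build the complexes, gave few calls. Of 24 for complexes I to III, 0 were called in Hb9 against Thy1, with a median of 0.34, and 2 were higher than in Drd4, Sdhaf3 by 0.78 and Uqcc2 by 0.63. Of 21 for complexes IV and V, with a median of 0.29, Cox17, a copper carrier, was higher in Hb9 than in Thy1 by 0.77 ± 0.19 (adjusted p = 0.0409). Both medians against Thy1 were above that of the subunits, 0.26. In Hb9 against Drd4 the medians of the 2 lists were 0.12 and 0.26, against 0.34 for the subunits.

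In the citric acid cycle and pyruvate dehydrogenase list of 23 genes, 2 were higher and 1 lower in Hb9 than in Thy1, with a median of 0.23. Dld and Dlat, which belong to pyruvate dehydrogenase, were higher by 0.83 ± 0.20 (adjusted p = 0.0384) and 0.57 ± 0.14 (adjusted p = 0.0374). Pdk4, a kinase that turns this enzyme off, read 3.87 and 3.96 in Hb9, 3.92 and 3.76 in Drd4, and 5.38 and 4.70 in Thy1, above background on 1 array of Thy1 alone, and was lower with adjusted p of 0.00977 in Hb9 and 0.00455 in Drd4. In Drd4, Suclg2 was lower too, with a difference of -0.62. Dld was 1.99-fold higher in Hb9 than in Drd4.

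Of 19 glycolysis and lactate genes, 1 was higher in Hb9 than in Thy1, Pfkp with 0.77 ± 0.17 (adjusted p = 0.0259), and the median was 0.09. In Drd4 the hexokinase Hk2 and the lactate carrier Slc16a1 were lower than in Thy1, with differences of -1.10 and -1.19. Between the lines, Slc16a1, Slc16a7 and Aldoc were higher in Hb9, by 1.08, 1.02 and 0.85. Of 9 creatine and adenylate kinase genes, Ak5 was higher in Hb9 than in Thy1 by 0.98 ± 0.15 (adjusted p = 0.00521) and than in Drd4 by 1.29. Of 10 antioxidant genes, Sod2 was higher in Hb9 than in Thy1 by 0.67, and Gpx1 and Nnt were higher than in Drd4 by 0.78 and 0.91. Of 19 genes for mitochondrial fusion and transport, Mfn1 was higher and Kif5b, a kinesin motor, lower in Hb9 than in Thy1, with differences of 0.71 and -0.72, and Kif5b was also lower than in Drd4. Of 23 carrier, channel and import genes, 0 were called against Thy1 in either line, and Tomm20 was higher in Hb9 than in Drd4 by 0.57. Medians of Hb9 minus Thy1 were 0.36 for the creatine and adenylate kinases and 0.22 for the antioxidant genes. They were 0.13 for fusion and transport and 0.18 for carriers, channels and import, against 0.26 for the subunits.

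Other features of the arrays moved with the groups as well. Genes of the cytosolic ribosome, 46 in number, had medians of 0.13 in Hb9 minus Thy1, with 1 higher, -0.24 in Drd4 minus Thy1, with 3 lower, and 0.39 in Hb9 minus Drd4, with 13 higher and all 46 positive. The spiked hybridisation controls averaged 10.01 and 10.16 on the Hb9 arrays, 10.43 and 10.37 on the Drd4 arrays, and 10.42 and 10.29 on the Thy1 arrays in log2. Gapdh probes at the 3′ end exceeded those at the 5′ end by 2.22 and 2.33 in Hb9, 2.15 and 1.94 in Drd4, and 2.03 and 1.99 in Thy1. For Actb these values were 2.01 and 2.27 in Hb9, 2.29 and 2.20 in Drd4, and 2.34 and 2.21 in Thy1. Hb9 arrays were thus lowest for the spikes and highest for the Gapdh ratio, and the part of these in the subunit differences was not tested.

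Markers of other cells differed mainly between the lines and Thy1. Of 14 microglia markers, 12 were lower in each line, and their summed intensity was 1802 and 2279 in Hb9, 3269 and 1159 in Drd4, and 12454 and 7249 in Thy1. Of 14 endothelial and pericyte markers, 4 were lower in Hb9 and 5 in Drd4, with sums of 2248 and 1868 in Hb9, 1430 and 602 in Drd4, and 8170 and 9090 in Thy1. Itgam of the microglia list and Pecam1, Tek, Cldn5 and Anpep of the endothelial and pericyte list were below background on all arrays. Of 13 markers of dividing cells, 4 were lower in Hb9 and 6 in Drd4, with sums of 595 and 583 in Hb9, 505 and 485 in Drd4, and 762 and 1109 in Thy1. Immediate-early genes gave 8 lower of 19 in each line, with sums of 3670 and 4182 in Hb9, 3760 and 3469 in Drd4, and 7076 and 5613 in Thy1. The Thy1 arrays were thus highest for these 4 lists, and the part of other cells in the subunit differences was not tested.

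Of 11 Müller glia and astrocyte markers, 2 were lower in Hb9 and 3 in Drd4, and Rlbp1 was below background on all arrays. Their sums were 2364 and 2249 in Hb9, 2522 and 2197 in Drd4, and 3480 and 3552 in Thy1. Of 12 amacrine and horizontal cell markers, 1 was higher and 1 lower in Hb9 and 1 higher and 3 lower in Drd4, and Gad1, Slc32a1, Tfap2b and Lhx1 were below background. Sums were 2907 and 2420 in Hb9, 2165 and 2484 in Drd4, and 1760 and 2076 in Thy1. The 10 rod markers summed to 333 to 357 on all arrays, with 0 called. Of 14 ganglion cell markers, 1 was higher and 0 lower in Hb9 than in Thy1, and 3 were higher and 2 lower in Drd4. Their differences from Thy1 ran from -0.54 to 0.57 in Hb9 and from -1.74 to 0.77 in Drd4. Between Hb9 and Drd4, 0 microglia, endothelial, rod and immediate-early markers were called, while 1 marker each of dividing, glial, amacrine and horizontal, and ganglion cells was higher in Hb9 and 1 of ganglion cells was lower. The Hb9 minus Drd4 differences of the endothelial and pericyte markers ran from -0.20 to 3.01, with a median of 0.08. Their levels in the 2 lines are thus not shown to be alike.

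**Figure D4:**
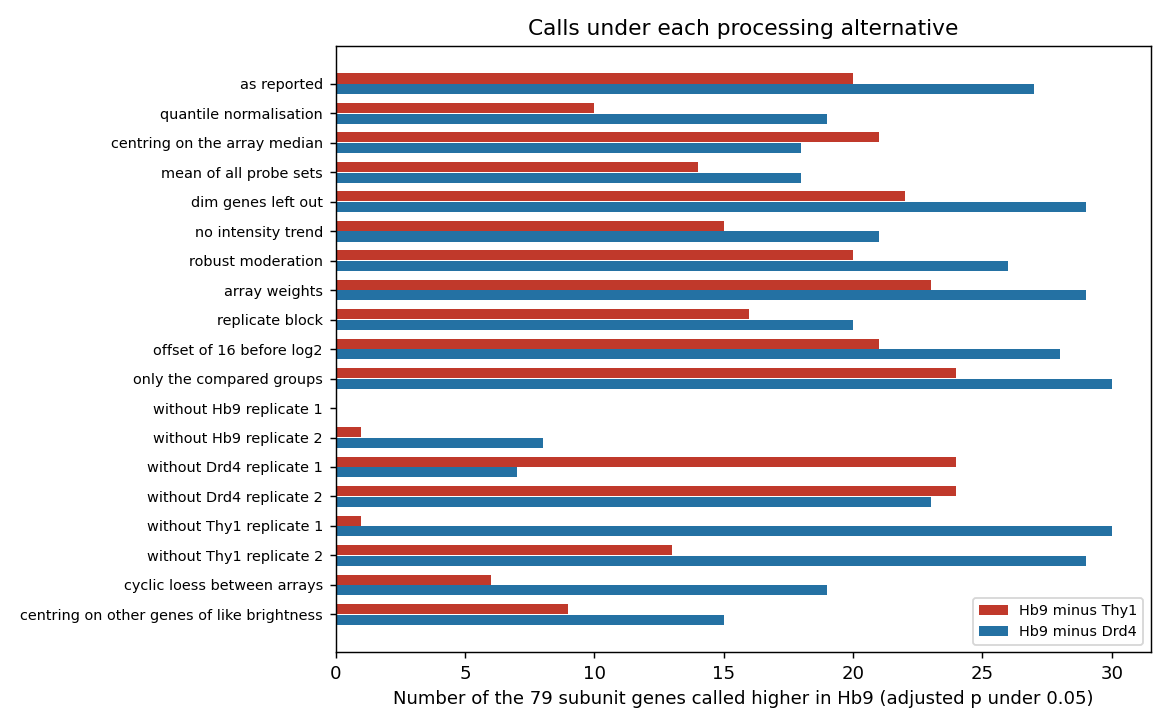
Number of the 79 subunit genes called higher in Hb9 at an adjusted p under 0.05 (horizontal axis) under each setting (vertical axis), for Hb9 minus Thy1 and Hb9 minus Drd4. The counts as reported are 20 and 27, and both are 0 without Hb9 replicate 1.

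The 12 settings other than leaving out an array kept the direction of the medians in both Hb9 comparisons. Quantile normalisation gave 10 calls against Thy1 and 19 against Drd4, and cyclic loess, added after the data were seen, gave 6 and 19. Under quantile normalisation, 18 of the 27 genes called against Drd4 kept their call. Ndufc1, Atp5l, Cox7a1, Cox7c, Ndufa1 and Ndufv3 kept their call against Thy1 in all 12. Against Drd4, Cox6c, Ndufa1, Ndufa13, Ndufb7, Atp5h, Ndufb11, Ndufc1, Atp5e, Atp5l, Ndufb10 and Ndufs7 did.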

How the data were processed

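Cells sorted from the retina were measured on 6 arrays, 2 for each of 3 groups named in the labels. The deposited values are intensities of probe sets on a linear scale; the software, background correction and normalisation that the authors used were not given in the sources used here. Among 45101 probe sets, 64 are controls, 34945 name 1 gene, 932 several and 9160 none. Log2 was taken, the probe set with the highest mean over the 6 arrays stood for each gene, and 18193 genes were fitted with limma 3.58.1 in R 4.3.3 as 3 group means with moderated, trended variances (3 residual and 6.98 prior degrees of freedom). Tests were two-sided, and adjusted by Benjamini-Hochberg over all genes at 0.05. On simulated data with independent noise the test called nearly all changed genes, and false calls were above the nominal rate. The planted changes were larger than nearly all of the subunit differences. The simulation therefore does not show how many changes of the subunits' size the test would find. With 2 arrays on each side, exact permutation p-values are 0.333 or more. The number of arrays limits the precision. Genes were named from the platform annotation, and promoters came from RefSeq (GRCm38.p6).

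Members, lists and alternatives were chosen with earlier results of these data known. Named subunits are the 12 with the smallest p in a comparison, complex II, the extremes of each complex and isoforms; others were named to spell out counts after their values were seen. From other lists, up to 4 called genes were named. The alternatives were other normalisations and probe set rules, dim genes left out, other variance settings, an offset of 16, the compared groups alone, the replicate number as a block, and each array left out.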

Additional observations from a re-analysis of the deposited data

Results flagged for a closer look

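For 27 subunit genes the change from Thy1 differed between the Hb9 and the Drd4 line by limma's test of that difference, which equals Hb9 minus Drd4. The test uses no Thy1 array for the difference itself, although those arrays enter the estimate of the spread. In complex I the log2 differences over 0.70 were Ndufb7 1.22, Ndufab1 0.96, Ndufa13 0.88, Ndufs7 0.88, Ndufb10 0.75 and Ndufa6 0.72. The other complex I genes had Ndufs8 0.69, Ndufb11 0.67, Ndufa5 0.65, Ndufa1 0.64, Ndufc1 0.63, Ndufb5 0.62, Ndufb9 0.58, Ndufb8 0.53, Ndufa12 0.52 and Ndufv3 0.51. In complex IV they were Cox7c 0.73, Cox6c 0.73, Cox7a1 0.66, Cox6b1 0.55, Cox5b 0.51 and Cox5a 0.46. In complex V they were Atp5l 0.91, Atp5e 0.75, Atp5h 0.70, Atp5d 0.59 and Atp5j2 0.47. All 27 were higher in Hb9, in both Hb9 arrays against both Drd4 arrays. Without Hb9 replicate 1, none of them passed (0 calls). Groups of 2 arrays are too small for a search for outlying arrays.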

How the results depend on the processing

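In all 12 settings other than leaving out an array, the median subunit differences of Hb9 against Thy1 and against Drd4 kept their sign. With Thy1, 20 subunit genes called higher became 10 by quantile normalisation, 6 by cyclic loess and 9 by centring on other genes of like brightness, which took the median of 0.26 to 0.10. Leaving out 1 array gave 0 to 24. With Drd4, 27 became 15 by that centring and 0 to 30 with 1 array left out. For both lines against Thy1, the 1 gene higher became 2 by centring on the array median, 0 by cyclic loess and 0 by centring on like brightness, and 0 to 1 with 1 array left out; 0 genes lower became 1 by the mean of all probe sets and 1 by cyclic loess. The causes were not tested, beyond that leaving out an array leaves fewer samples, where a lone array is assumed to vary like the other groups. With the replicate number as a block, the 3 comparisons of single groups gave 16, 0 and 20 subunit genes higher for Hb9 against Thy1, Drd4 against Thy1 and Hb9 against Drd4, and both lines against Thy1 gave 1. Deviations of replicate 1 from 2 correlated at -0.28, -0.19 and 0.37 between the groups over 18193 genes, so the numbers are not shown to pair the samples. Over all genes, Hb9 against Thy1 called 640 genes higher, and 361 by quantile normalisation, 303 by cyclic loess and 316 by centring on like brightness; for Hb9 against Drd4 the count of 739 stood at 517, 544 and 540. Dim intensities limit Ndufb4, Cox7b2, Cox8b and Cox7a1, and 2 arrays a group limit what could be called.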
